A study of Bos grunniens with 18 samples.

Results

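The T cell genes considered here are CD3D, CD3E and CD3G (signalling chains of the T cell receptor complex), CD4 and CD8A (co-receptors), CD2, CD5, CD6 and CD96 (surface receptors) and ZAP70 (the kinase that binds the activated receptor). They were chosen by gene symbol. Of these 10 genes, 1, CD96, is among the 173 genes with values in the part of the expression table analysed here, and the other 9 were not analysed here. The results therefore describe CD96, and no statement about T cell genes as a group can be drawn from them.

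The samples were ovarian tissue of healthy yaks (Bos grunniens), 6 years old by the methods of the study, from 1 farm. Ovaries were taken during anestrus in April (YO-A), estrus in August (YO-F) and pregnancy in December (YO-P), so stage and month of collection cannot be told apart. No animal was treated, and each stage has 3 input libraries of poly(A) RNA, 9 in all, with 9 matching libraries after immunoprecipitation of RNA carrying N6-methyladenosine (m6A). The study left YO-F2 out of its comparisons because this library stood apart from the others, and values are given here without it and with it. Expression is in FPKM (fragments per unit of exon length and of mapped reads), which corrects for gene length and library size. Because FPKM holds no counts, the number of fragments behind a value is unknown.

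CD96 is a receptor of the immunoglobulin superfamily on T cells and natural killer cells. It binds the poliovirus receptor PVR, a ligand that it shares with CD226, an activating receptor, and with TIGIT, an inhibitory one. Lymphocytes and macrophages are resident in the ovary and enter the follicle wall and the corpus luteum in numbers that vary over the cycle. The presence of T cells in these samples could not be checked with CD96 alone. The defining markers, such as the CD3 chains, are not in the part analysed, and CD96 is shared with natural killer cells. In RNA of a whole organ, fewer cells of a type and less RNA per cell cannot be told apart.

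CD96 (ENSBGRG00000000198, 2 transcripts) lies on the plus strand of chromosome 1 from 60852787 to 60961654, in the coordinates of the deposited table. It was detected in every library at a low level. In anestrus, CD96 had an FPKM of 0.995 in YO-A1, 1.07 in YO-A2 and 0.732 in YO-A3. In estrus it had 0.525 in YO-F1, 0.688 in YO-F3 and 1.91 in YO-F2. In pregnancy it had 1.70 in YO-P1, 1.15 in YO-P2 and 2.67 in YO-P3. The pregnancy libraries were the highest and most widely spread of the stages the study compared, and YO-F1 and YO-F3 were the lowest. YO-F2 lay far from its own stage, and of the other 8 libraries 1, YO-P3, was higher.

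**Figure D1:**
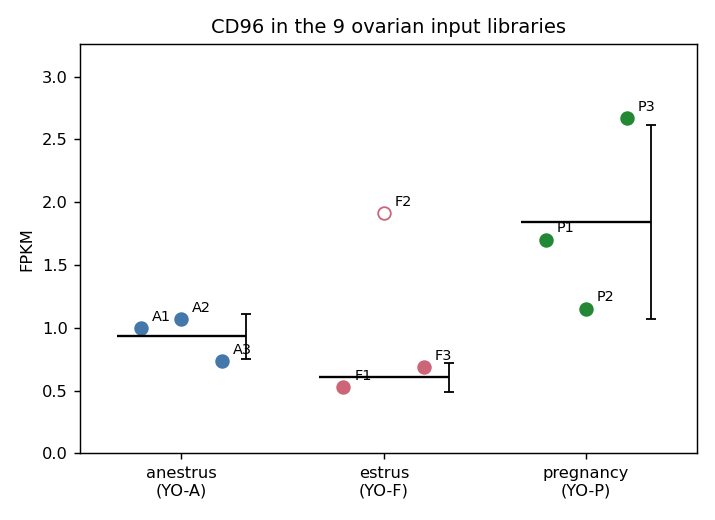
CD96 in FPKM (vertical axis, linear from 0) in each of the 9 input libraries by stage. Filled points are the 8 libraries compared, the open point is YO-F2, and lines with bars give the mean and SD of the filled points. The 2 filled estrus points (0.525 and 0.688) lie below the 3 anestrus points (0.732 to 1.07), which lie below the 3 pregnancy points (1.15 to 2.67), whereas YO-F2 is at 1.91.

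The mean level was 0.607 ± 0.115 (SD, n = 2) in YO-F, 0.931 ± 0.176 (SD, n = 3) in YO-A and 1.84 ± 0.769 (SD, n = 3) in YO-P. The ranges of the 3 stages did not overlap in these 8 libraries. Among the 130 genes tested, CD96 was the only gene for which this held (0.769%). With 2, 3 and 3 libraries, some genes can lie apart in this way without a difference between stages. How many was not tested, so this count is not read as a result about CD96. With YO-F2 the estrus mean was 1.04 ± 0.760 (SD, n = 3) and estrus overlapped with both other stages, but pregnancy remained above anestrus, since neither holds this library. Within a stage, the highest library exceeded the lowest 1.46-fold in anestrus and 2.32-fold in pregnancy. YO-F3 exceeded YO-F1 1.31-fold, and YO-F2 exceeded them 2.78-fold and 3.65-fold. A distance of this size between YO-F2 and its stage, in either direction, was common in the table. On the log2 scale, 30.8% of the 130 genes lay at least as far as CD96 (1.51) above or below the mean of YO-F1 and YO-F3. The share that lay as far above it, as CD96 did, was not counted.

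Compared with other genes per exon length, CD96 was in the lower part of the table. Its mean FPKM over the 8 libraries was 1.19, the median over the 173 genes was 2.89, and 100 genes were higher. By stage, 107 genes were higher in estrus, 102 in anestrus and 96 in pregnancy.

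Differences between stages were tested with limma on log2(FPKM + 0.1), in 1 fit of the 130 genes whose FPKM averaged 0.1 or more. Because 0.1 is added to each FPKM, the change of genes of low level is understated. A gene met the study's standard if its log2 fold change was 1 or more in size and its unadjusted p was below 0.05.

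In YO-FvsP, CD96 was lower in estrus, with a log2 fold change of -1.39 (standard error 0.44, 95% confidence interval -2.39 to -0.39) and an unadjusted p below 0.05. It met the study's standard, as did 2.31% of the 130 genes in this comparison. With Benjamini-Hochberg adjustment over the 130 genes (limma, adjusted p = 0.255), CD96 was not called. No gene was (0%), and 12 genes (9.23%) had an unadjusted p below 0.05. Both estrus libraries lay below the 3 pregnancy libraries, as in 6.92% of the genes. Genes whose stages lay apart the other way are not in this share. The exact two-sided permutation test gave p = 0.2, and 2 libraries against 3 cannot give less than 0.1. The call depended on both the libraries and the scale. CD96 did not meet the standard with YO-F2 included, at a log2 fold change of -0.89 (limma, adjusted p = 0.512), or without YO-F1, at -1.23 (limma, adjusted p = 0.669). With the same 8 libraries it also missed the standard after quantile normalization, at -0.81 (limma, adjusted p = 0.579), and with a pseudocount of 1, at -0.79 (limma, adjusted p = 0.277). With YO-F2, the exact permutation test gave p = 0.3 with 3 libraries against 3, where the smallest possible value is 0.1.

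In YO-PvsA, the log2 fold change of CD96 was 0.85, higher in pregnancy (standard error 0.39, 95% confidence interval -0.04 to 1.75, limma, adjusted p = 0.874). It did not meet the standard, which 2.31% of the 130 genes met, whereas 0% had an adjusted p below 0.05 and 4 genes (3.08%) an unadjusted p below 0.05. The 3 pregnancy libraries lay above the 3 anestrus libraries, as in 5.38% of the genes, counted in this direction alone. The exact two-sided permutation test gave p = 0.1, the smallest that 3 libraries against 3 allow. The pregnancy libraries differed enough among themselves to move the result. Without YO-P2 the log2 fold change was 1.13 and CD96 met the standard (limma, adjusted p = 0.871), and without YO-P3 it was 0.56 (limma, adjusted p = 0.949).

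In YO-FvsA, the log2 fold change of CD96 was -0.54 (standard error 0.44, 95% confidence interval -1.54 to 0.46, limma, adjusted p = 0.743). It did not meet the standard, which 1.54% of the genes met. No gene had an adjusted p under 0.05 (0%), and 12 (9.23%) had an unadjusted p below 0.05. Both estrus libraries lay below the anestrus libraries, as in 6.92% of the genes, counted in this direction alone. However, the closest pair, YO-F3 at 0.688 and YO-A3 at 0.732, differed by less than the SD of either stage (exact two-sided permutation p = 0.2). The log2 fold change was -0.03 when YO-F2 was included. The order of the mean levels was thus estrus, anestrus, pregnancy in the 8 libraries. Neither step between neighbours in this order passed the standard, and the step from the first to the last passed it without YO-F2. The 3 comparisons share libraries and are not independent of each other.

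**Figure D2:**
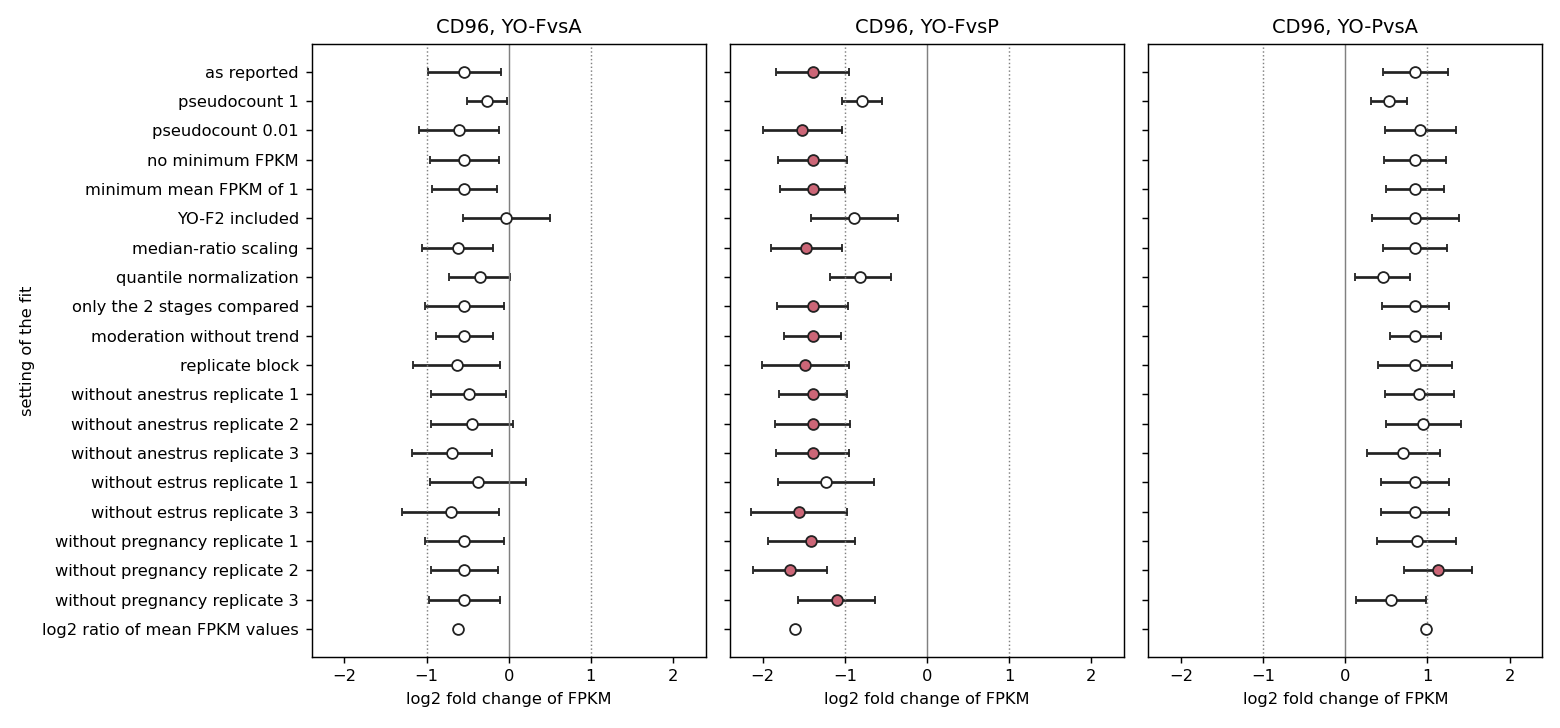
Log2 fold change of CD96 in the 3 comparisons (horizontal axes; dotted lines at -1 and 1) for each setting of the fit (vertical axis). Bars are standard errors, filled points met the study's standard, and the ratio of mean FPKM values has no test. Across these settings the sign stayed the same in each comparison, from -1.67 to -0.79 in YO-FvsP, from 0.46 to 1.13 in YO-PvsA and from -0.71 to -0.03 in YO-FvsA, and no adjusted p was under 0.05. Settings that leave the 2 stage means unchanged could not move the log2 fold change.

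Inside the CD96 gene, on the opposite strand, lies ZBED2 (ENSBGRG00000000207, 60892837 to 60893493), a gene for a zinc finger protein of the BED type. It was listed at 0 in 4 libraries (YO-A1, YO-A3, YO-P1 and YO-P2). Its other FPKM values were 0.166 in YO-A2, 0.00242 in YO-F1, 0.414 in YO-F2, 0.110 in YO-F3 and 0.232 in YO-P3. In each of the 3 stages, YO-F2 included, the library with the most ZBED2 was also the library with the most CD96, although ZBED2 was far lower. In anestrus and in pregnancy, that library was the only library of its stage with ZBED2 above 0. How many other genes share their highest libraries with CD96 in this way was not counted. The library kit marks the strand, but whether strand was used in the counting is not given in the sources used here, so reads of these overlapping genes may not be separated. Of the named neighbours in the table, NECTIN3, which codes for a nectin, an adhesion molecule of the same family as PVR, lies 241122 bases before CD96 and had an FPKM of 2.91 to 5.12 over the 8 libraries. Its log2 fold change was -0.14 in YO-FvsP (limma, adjusted p = 0.939). PHLDB2, a cytoskeletal adaptor gene 26593 bases after CD96, had 16.7 to 26.5 in the 8 libraries, and 3.25 in YO-F2, where CD96 was high. Its pregnancy libraries lay above its anestrus libraries, as those of CD96 did, with a log2 fold change of 0.33 (limma, adjusted p = 0.874).

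The lists of other T cell genes, of natural killer, B and other blood cells, and of ovarian cell types held 220 further genes, of which 1 had values here. That gene was CD84, a self-binding receptor of the SLAM family that is found on many leukocytes and was placed in the macrophage list. Its FPKM was 1.83, 2.66 and 0.760 in YO-A1, YO-A2 and YO-A3, 2.52, 3.65 and 2.29 in YO-F1, YO-F2 and YO-F3, and 6.35, 2.87 and 3.85 in YO-P1, YO-P2 and YO-P3. Like CD96, it was highest in pregnancy, but its lowest library was YO-A3 and its mean was lower in anestrus than in estrus. Its log2 fold change was 1.35 in YO-PvsA (limma, adjusted p = 0.874, standard met) and -0.76 in YO-FvsP (limma, adjusted p = 0.676, standard not met). ITGB2, the beta chain of the leukocyte integrins, was chosen after the values were seen, from 6 other genes whose annotation names leukocytes, lymphocytes, T cells, natural killer cells or immune processes. It had 4.26, 5.86 and 2.95 in anestrus, 10.9, 9.17 and 3.93 in estrus and 10.5, 3.33 and 6.29 in pregnancy, each in the order of the replicate numbers, and the stages overlapped. YO-F1, the library with the least CD96, had the most ITGB2, and YO-P2, the pregnancy library with the least CD96, also had the least CD84 and ITGB2 of its stage. Of the 6 genes (APP, CXADR, DDOST, ITGB2, JAM2 and PLCL2), 0 met the standard in any comparison. Their median log2 fold change was 0.19 in YO-FvsP, 0.16 in YO-FvsA and -0.11 in YO-PvsA, beside medians of 0.07, 0.07 and -0.03 over the 130 genes. The log2 fold changes of the 6 genes had both signs in each comparison, from -0.39 to 0.63 in YO-FvsA, from -0.27 to 0.36 in YO-FvsP and from -0.21 to 0.51 in YO-PvsA.

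**Figure D3:**
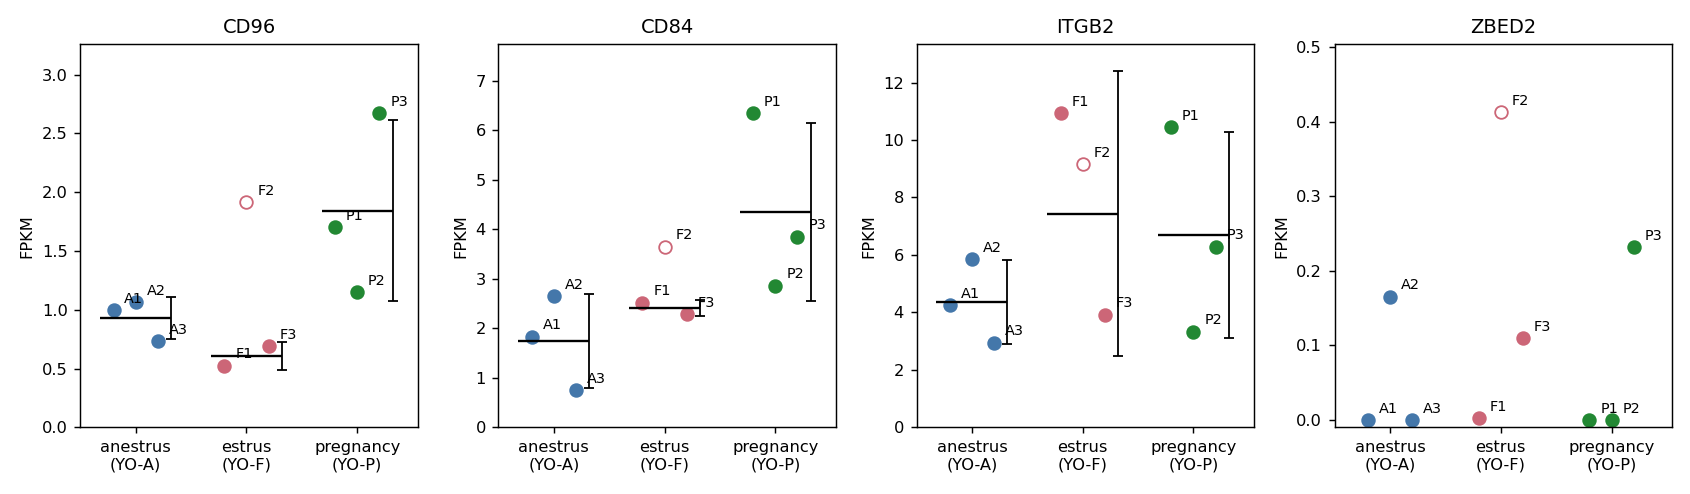
FPKM (vertical axes, linear, a separate scale per gene) of CD96, CD84, ITGB2 and ZBED2 in each input library by stage. Filled points are the 8 libraries compared, the open point is YO-F2, and lines with bars give the mean and SD of the filled points, which are left out for ZBED2 because of its values of 0. CD96 and CD84 have their highest mean in pregnancy, ITGB2 overlaps between all stages, and ZBED2 peaks in YO-A2, YO-F2 and YO-P3 as CD96 does.

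The genes whose pattern was most like that of CD96 were looked for among 81 named genes whose mean FPKM was 1 or more. The likeness was Pearson's r of log2(FPKM + 0.1) over the 8 libraries, a description over libraries that share their stage. The highest values were 0.757 for NCAM2, which codes for a neural cell adhesion molecule, 0.678 for VGLL3, a transcription cofactor gene, and 0.614 for CD84. PHLDB2 (0.543), SYNJ1 (0.472), a gene for a phosphoinositide phosphatase, and PCOLCE2 (0.433), for an enhancer of procollagen processing, came next. Over the 81 genes the median r was -0.113 and the lowest -0.855, larger in size than the highest, and 0 genes reached 0.8. By rank (Spearman's rho), CD84 had 0.762, VGLL3 0.619 and NCAM2 0.595. The likeness of NCAM2 and VGLL3 was not kept in YO-F2, where they had 0.139 and 0.135, the lowest values of their 9 libraries. With this library r was 0.04 for NCAM2 and -0.10 for VGLL3, whereas for CD84 it was 0.637. NCAM2 had 4.79 in YO-P3 and 1.04 in YO-P2, the pregnancy libraries with the most and the least CD96.

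m6A is a methyl mark on adenosines of mRNA, and regions that carry it appear as peaks of the immunoprecipitated RNA over the input. The authors' lists give 1 set of peaks per stage, so there are no replicates and no test between stages. The part of the anestrus list analysed here ends at position 22449705 of chromosome 1 and that of the estrus list at 36965772, before CD96, so m6A on CD96 in these stages was not analysed here. The pregnancy list holds 282 peaks with complete values, all on chromosome 1. The first 238 run in order of position to 172200451, past CD96, and 226 of these are assigned to genes on the plus strand, the strand of CD96. The others start again from lower positions and end before CD96. It holds 0 peaks under CD96 and 0 within its bounds. The nearest peaks lay in NECTIN3 (60480881 to 60481060, fold enrichment 4.09, log10 p of -58.0), 371727 bases before CD96, and in TAGLN3, 405139 bases after it (fold enrichment 3.78, log10 p of -2.80).

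The share of genes with a listed peak differed with their level. Of the other 61 genes of the expression table on the plus strand of chromosome 1, 20 (32.8%) had a pregnancy peak. Among those with a mean pregnancy FPKM more than 2 times that of CD96, 15 of 28 (53.6%) had one, among those from 0.5 to 2 times its level 1 of 6 (16.7%), and among those lower still 4 of 27 (14.8%). The differences between these shares, and the part of the low level of CD96 in its lack of a listed peak, were not tested.

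**Figure D4:**
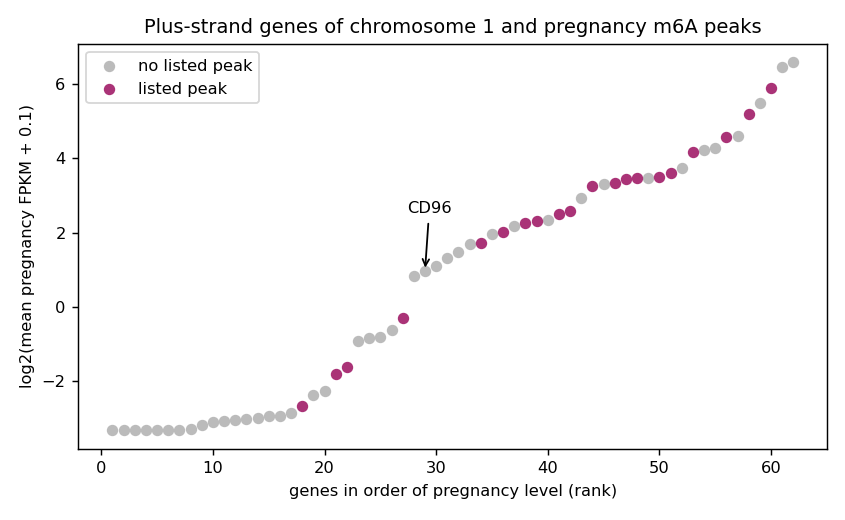
Mean pregnancy level as log2(FPKM + 0.1) (vertical axis) of CD96 and the 61 other genes on the plus strand of chromosome 1, in order of level (horizontal axis, rank). Dark points are genes with a peak in the pregnancy m6A list and grey points genes without one. CD96, marked by the arrow, has no listed peak, and most genes with one lie above its level.

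Among the 31 genes of a list for T cell receptor signalling, 1 (UBASH3A) had a listed pregnancy peak, and among the 37 genes of a list for T cell costimulation, checkpoint and identity, 1 (TIGIT) had 2. How many of these genes lie in the stretch the peaks cover was not determined, so these counts cannot be set against the 32.8% above, and the expression of these genes was not analysed here. TIGIT (ENSBGRG00000001881), the inhibitory receptor that shares PVR with CD96, had a peak from 63717201 to 63718556, annotated to the 5′ UTR, with a fold enrichment of 4.32 and a log10 p of -1.47. The log10 of its false discovery rate was -0.937. A further TIGIT peak from 63718615 to 63735730, annotated to exon 2 of 4 and made of 3 blocks with 539 bases in all, had a fold enrichment of 8.64. UBASH3A (ENSBGRG00000018065), a negative regulator of T cell receptor signalling, had a peak of 90 bases at the start of the gene, from 155625554 to 155625643 in exon 1 of 12. Its fold enrichment of 8.64 and log10 p of -1.83 were the same as those of the longer TIGIT peak. The evidence for these peaks was weak for this list. A log10 p of -1.83 or closer to 0 was found for 43 of the 282 peaks, and none of the 3 peaks had a log10 false discovery rate under -1.3, as 235 of the 282 peaks did.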

How the data were processed

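Ovarian RNA of 3 stages was measured in 9 input libraries and 9 immunoprecipitated libraries. Reads were filtered with fastp, aligned with HISAT2 (version 2.0.4 in the submitters' processing notes) to the Bos grunniens genome and quantified with StringTie by the authors, who deposited FPKM values. For each stage the authors deposited 1 list of peaks with their fold enrichment (a ratio). Its 2 score columns, per the file headers, are base-10 logarithms of p and of the false discovery rate. The peak caller is not given in the sources used here, and ChIPseeker 1.18.0 is named in the notes. Tables of the authors' own comparisons of peaks between stages (log2 fold changes and p-values) were not used. The files were analysed in their opening part alone, which holds 173 genes with values (1 line without any was dropped). No sequences are shown.

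Stages were compared with limma 3.58.1 (R 4.3.3) on log2(FPKM + 0.1), with a trend in the moderation, in 8 libraries without YO-F2 as in the study, whose own test needs counts. The p-values of limma set the difference between stages against the spread between libraries within stages, shared over the stages and moderated over the genes. This spread may be partly technical. Replicate numbers did not pair the libraries. The fit was run on simulated data with changes larger than those of CD96, which cannot show how well it finds changes of that size. The alternatives tried were the inclusion of YO-F2, a pseudocount of 0.01 or 1, no filter or a filter at a mean FPKM of 1, quantile normalization, median-ratio scaling, only the 2 stages compared, no trend, a replicate block, the ratio of mean FPKM values, each library left out, and a log10 false discovery rate under -1.3 for peaks. Named genes were the T cell genes, up to 5 genes per fixed list that met the standard and averaged an FPKM of 1 or more, the 6 genes most like CD96, and the peaks of T cell list genes. NECTIN3, TAGLN3, ZBED2, ITGB2 and the other genes with immune annotation were named after their values were seen. The genes and lists were chosen with earlier results of these data known. Descriptions and figures used Python 3.11.15, pandas 2.3.3, scipy 1.17.1 and matplotlib 3.10.9.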

Additional observations from a re-analysis of the deposited data

How the results depend on the processing

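CD96 kept its sign in all 19 alternatives of each comparison, and no adjusted p from limma was under 0.05 (lowest 0.150 in YO-FvsP). Several alternatives could not change the log2 fold change. The filters, the trend and libraries of the stage not compared leave the 2 stage means as they were, as does the replicate block in YO-PvsA. There the kept sign was fixed in advance. In YO-FvsP CD96 lost the study's standard with a pseudocount of 1 (log2 fold change -0.79), with YO-F2 included (-0.89) and with quantile normalization (-0.81), so the number of T cell genes that met it was 0 instead of 1 in these fits. With 1 library left out, the log2 fold change was -1.67 to -1.10 and the number 0 to 1, the loss coming without YO-F1. A larger pseudocount shrinks changes of low values by construction, and the cause was not tested for the others. In YO-PvsA the log2 fold change with 1 library left out was 0.56 to 1.13 and the number that met the standard 0 to 1, and in YO-FvsA it was -0.71 to -0.37 and the number 0. The mean FPKM of CD96 in estrus was 1.04 with YO-F2.

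Over all genes, the YO-FvsA count of genes that met the standard moved from 2 to 1 with a pseudocount of 1, a minimum mean FPKM of 1, median-ratio scaling, only the 2 stages compared and the replicate block, to 5 with YO-F2, and to 1 to 9 with 1 library left out. The YO-FvsP count moved from 3 to 1 with a pseudocount of 1, to 5 with YO-F2 and with median-ratio scaling, and to 3 to 9 with 1 library left out. The YO-PvsA count moved from 3 to 1 with a pseudocount of 1 and to 1 to 4 with 1 library left out. Leaving out YO-F3 gave both counts of 9, with 1 estrus library assumed to vary like the others. The YO-FvsA count was 4 without YO-A3 and 1 without each pregnancy library in turn, the YO-FvsP count 5 without YO-P2 and the YO-PvsA count 1 without YO-A3. An adjusted p below 0.05 was found for 0 genes as reported, and in 7 of 18 other fits for up to 5 genes in YO-FvsA, in 4 for 1 gene in YO-FvsP and in 0 in YO-PvsA, CD96 never among them. With the replicate block, CD96 had a log2 fold change of -1.48 in YO-FvsP (adjusted p = 0.500) and kept the standard. Of the 7 pairs of libraries with the same number, 1 had a correlation of deviations over 0.1, so the numbers are not taken as pairs. Under the stricter limit, the 3 pregnancy peaks of TIGIT and UBASH3A fell to 0, and CD96 stayed at 0.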
